A study of Mus musculus with 6 samples.

Results

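The genes described here encode the core proteins of the mouse spliceosome and the main families of splicing regulators: the SR proteins (Srsf genes), the heterogeneous nuclear ribonucleoproteins (Hnrnp genes), the proteins of the small nuclear ribonucleoproteins, or snRNPs (Snrp genes), and the SF3a and SF3b complexes (Sf3a and Sf3b genes). They were taken as every gene whose symbol begins with Srsf, Hnrnp, Snrp, Sf3a or Sf3b, which gave 49 of the 23420 genes counted, and no expression value entered that choice. The study compared DP-DSCs with TP-DSCs, which its title presents as subpopulations of dysplastic stem cells, isolated by flow sorting from Meta4 organoids, an organoid line of mouse dysplastic epithelium. All 6 libraries, 3 per group, come from this 1 line, with no treatment or time point in the labels. The labels do not spell out DP and TP; from general knowledge of the study they stand for double-positive and triple-positive cells. The samples are called independent, without saying whether they came from separate cultures, so the p-values below measure only how these samples scatter, and that scatter may be technical.

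Splicing removes introns in steps. The U1 snRNP pairs with the 5′ splice site and the U2 snRNP with the branch point, helped by SF3a and SF3b, and a ring of Sm proteins holds the RNA of each of these snRNPs. SR proteins mostly bind exons and promote their inclusion, whereas hnRNPs bind introns and exons and often oppose it; both are abundant in dividing epithelial cells and many of their genes regulate their own transcripts.

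The start regions of 4 of these genes are printed as description, and no level or fold change was computed from them. Snrpa1, Srsf9 and Hnrnpa1 are the genes whose values did not overlap between the groups, and Srsf5 was the most abundant SR gene per length of transcript. Each line holds the 250 bases before a start of transcription in RefSeq (build GRCm38.p6), 5′ to 3′ on the gene's strand. The Snrpa1 window lies inside the span that GENCODE M21 gives this gene, chr7:66059003-66074587. The Snrpa1 start in RefSeq was not compared with the starts of single GENCODE transcripts, and the window may not lie before the start in use. Capitals mark matches, on either strand, to 6 short motifs: TATAAA of the TATA box, CCAAT of the box bound by NF-Y, CCGGAAG of sites for ETS-family factors, GGGCGG of the GC box bound by Sp1, the NRF1 consensus, and TTTGGCGC of E2F sites.
Snrpa1, chr7:66060086-66060335, + strand: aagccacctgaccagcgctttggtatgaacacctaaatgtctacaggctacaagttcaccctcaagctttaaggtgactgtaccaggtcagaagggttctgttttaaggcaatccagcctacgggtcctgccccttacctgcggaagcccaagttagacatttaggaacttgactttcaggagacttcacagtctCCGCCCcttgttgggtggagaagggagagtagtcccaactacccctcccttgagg
Srsf9, chr5:115326927-115327176, + strand: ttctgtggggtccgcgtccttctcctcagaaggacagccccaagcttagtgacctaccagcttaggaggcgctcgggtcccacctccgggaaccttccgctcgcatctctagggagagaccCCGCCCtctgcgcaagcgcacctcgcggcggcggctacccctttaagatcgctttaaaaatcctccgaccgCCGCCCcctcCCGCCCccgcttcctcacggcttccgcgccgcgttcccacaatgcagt
Hnrnpa1, chr15:103240147-103240396, + strand: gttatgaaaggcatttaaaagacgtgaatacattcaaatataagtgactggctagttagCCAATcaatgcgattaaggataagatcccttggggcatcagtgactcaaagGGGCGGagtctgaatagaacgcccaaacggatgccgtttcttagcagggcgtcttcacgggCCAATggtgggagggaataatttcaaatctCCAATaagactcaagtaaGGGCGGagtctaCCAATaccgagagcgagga
Srsf5, chr12:80945249-80945498, + strand: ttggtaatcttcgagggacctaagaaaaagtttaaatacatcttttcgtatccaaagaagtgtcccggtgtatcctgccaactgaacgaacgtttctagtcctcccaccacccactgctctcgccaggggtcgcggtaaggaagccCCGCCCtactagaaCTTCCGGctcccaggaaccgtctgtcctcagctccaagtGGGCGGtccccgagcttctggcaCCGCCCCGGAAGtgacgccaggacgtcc
The Snrpa1 and Srsf9 windows held matches to GGGCGG alone. The Hnrnpa1 window held matches to CCAAT and GGGCGG. The Srsf5 window held matches to GGGCGG and CCGGAAG, and a pair of these overlap by a base near its 3′ end. CCGGAAG was in 29.5% of the 61 promoters listed for 44 of the 49 genes; a gene with several starts has several windows, which can overlap. The same letters were in 13.9% of the 11386 promoters of genes tested for expression and in 6.91% of all 32851 promoters of the same length. GGGCGG was in 65.6% of the splicing gene promoters and in 58.7% of those of tested genes. CCAAT was in 44.3% and 35.6%, and TATAAA in 9.84% and 6.27%. The NRF1 consensus was in 4.92% and 2.30%, and TTTGGCGC in 0% and 0.834%. The median number of CpG dinucleotides per window was 19 for the splicing genes, 16 for tested genes and 6 for all promoters. A match describes the letters and is not evidence of binding.

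Across the 6 libraries 17015581 to 32671039 reads fell in genes, and 195686 to 398551 of them in the splicing genes. Summed CPM (counts per 1000000 gene reads) of 6 epithelial genes, Epcam, Cdh1, Krt8, Krt18, Krt19 and Cldn7, lay between 7730 and 10099, which fits the epithelial label. Immune markers summed to 48.2 CPM in DP-DSCs replicate 1 and to 0 to 17.3 CPM in the others, with Cd3e and Emr1 at 0 in all 6; Cd68, a lysosomal protein gene used as a macrophage marker, made up 47.3 of the 48.2 CPM. In DP-DSCs replicate 1 Ptprc had 3 reads, Lyz2 1, Itgam 6, Csf1r 17 and Cd79a 0. Over all 6 libraries the sums were 0 to 3.19 CPM for fibroblast markers (Col1a2, Col3a1, Dcn, Lum and Pdgfrb at 0) and 0 to 5.0 CPM for endothelial markers (Pecam1 and Emcn at 0).

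The splicing genes took 1.03% of gene reads, in about equal amounts in both groups. In replicates 1, 2 and 3 of DP-DSCs their summed level was 7886, 12199 and 9826 CPM. The same sum in TP-DSCs came to 8517, 11500 and 12048 CPM. The ranges overlapped, and DP-DSCs averaged 9970 ± 2160 CPM against 10689 ± 1901 CPM for TP-DSCs (SD, n = 3 each), a ratio of 1.07. The hnRNP genes held 56.6% of this sum, the SR genes 21.9%, the SF3b genes 9.70%, the Snrp genes 9.54% and the SF3a genes 2.28%. In bulk RNA, fewer cells with a transcript and less of it per cell cannot be told apart.

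Of the 49 genes, 48 had a mean of at least 1 CPM and 47 had enough reads to be tested; the plot of CPM by library shows these 47. Just inside the 1 CPM threshold stood Srsf12, with a mean of 1.04 CPM. Its level was 0.0614 CPM in DP-DSCs replicate 1, 6.17 CPM in TP-DSCs replicate 2 and 0 in the other 4 libraries, so 1 library carried it past the threshold, and it was not tested. The gene just outside, and the only one below the threshold, was Snrpn, the imprinted relative of Snrpb that is known mainly from brain. Snrpn had 0 reads in all 6 libraries, which allows a level of up to 0.0918 to 0.176 CPM depending on the library (3 counts of its gene reads, counting error only). Its upstream reading frame Snurf, listed separately and looked at after these values were seen, was also at 0. Of the exon bases of Snrpn, 34.1% overlap another gene. If reads on shared bases were set aside as ambiguous, they would be missing from the Snrpn row. The limit therefore holds only for reads assigned to Snrpn, and the value of Snurf is not separate support. The part of ambiguous reads was not tested.

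**Figure D1:**
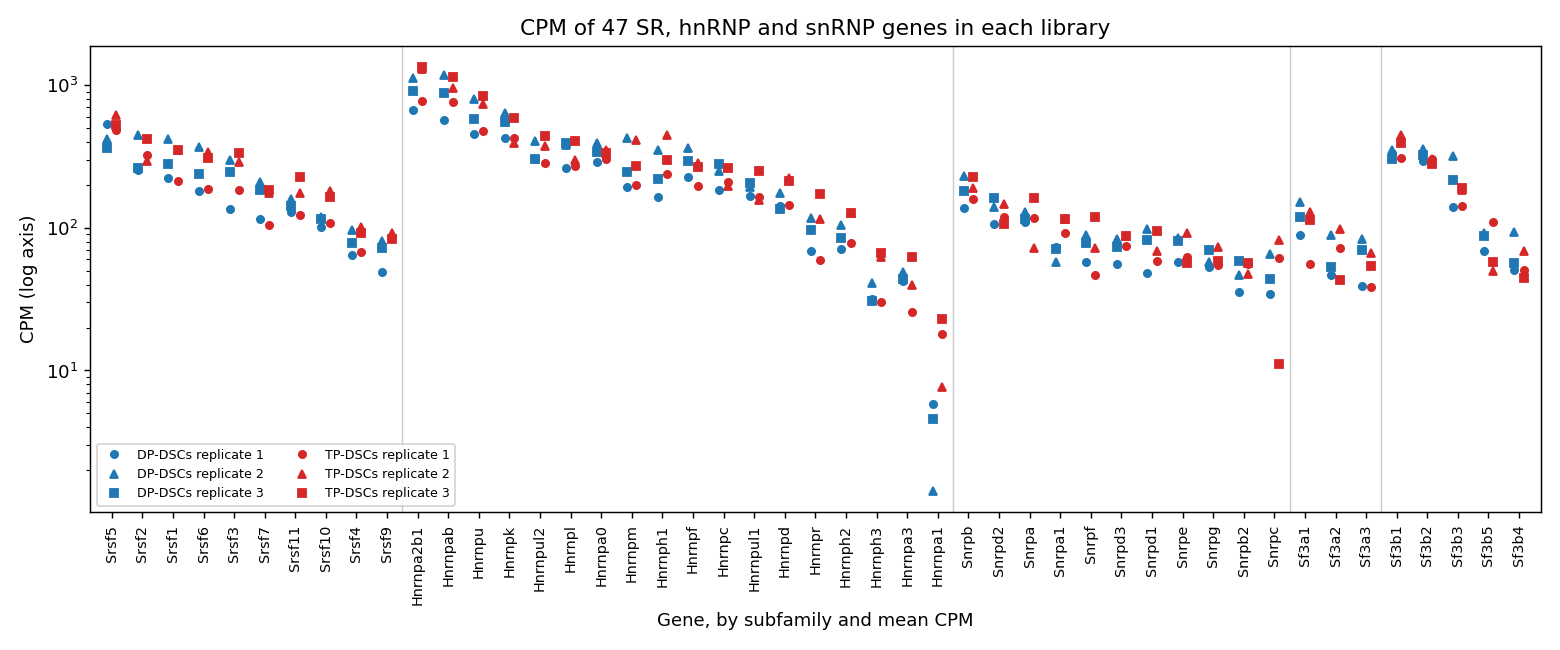
CPM (log axis) of the 47 tested genes in each of the 6 libraries, grouped by subfamily and ordered by mean; blue points are DP-DSCs and red points TP-DSCs. The libraries of the groups lie among each other for most genes, and Hnrnpa1 is the least abundant gene shown, with TP-DSCs at 7.70 to 23.0 CPM above DP-DSCs at 1.44 to 5.86 CPM.

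No splicing gene differed between the groups at an adjusted p under 0.05. The quasi-likelihood test of edgeR called 0 of 47, beside 0% of all 11925 genes tested in either direction. DESeq2 also called 0 of the 47, beside 0.326% of all genes higher and 1.83% lower in TP-DSCs, and limma-voom called 0, beside 0% in each direction. At an unadjusted p under 0.05, edgeR had 1 splicing gene higher in TP-DSCs, Snrpa1 (background 1.43%), and 0 lower (background 4.67%). DESeq2 had 2 higher, Snrpa1 and Hnrnpa1 (background 2.53%), and 0 lower (background 5.84%); limma-voom had the same genes higher (background 1.69%) and 0 lower (background 6.36%). With the library number as a block, edgeR had Snrpa1 higher (background 1.66%) and 0 genes lower (background 5.41%).

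The fitted differences were small. The log2 fold change, TP-DSCs over DP-DSCs, lay within 0.5 of 0 for 44 of the 47 genes (beside 8292 of all 11925 genes tested). The splicing genes outside this range were Hnrnpa1, Snrpa1 and Hnrnph3. The median log2 fold change was 0.07, beside -0.02 over all tested genes, and 28 of 47 were above 0 (59.6%, beside 48.2% of all genes tested). Without DP-DSCs replicate 1 the count was 16 of 47 and the median -0.081. The standard error had a median of 0.26 and ran from 0.17 for Hnrnpa0 and Sf3b2 to 0.90 for Hnrnpa1, beside a median of 0.43 over all tested genes. By subfamily the median log2 fold change was 0.17 for the SR genes (8 of 10 above 0), 0.11 for the hnRNP genes (11 of 18), 0.06 for the Snrp genes (7 of 11), -0.30 for the SF3a genes (1 of 3) and -0.17 for the SF3b genes (1 of 5).

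**Figure D2:**
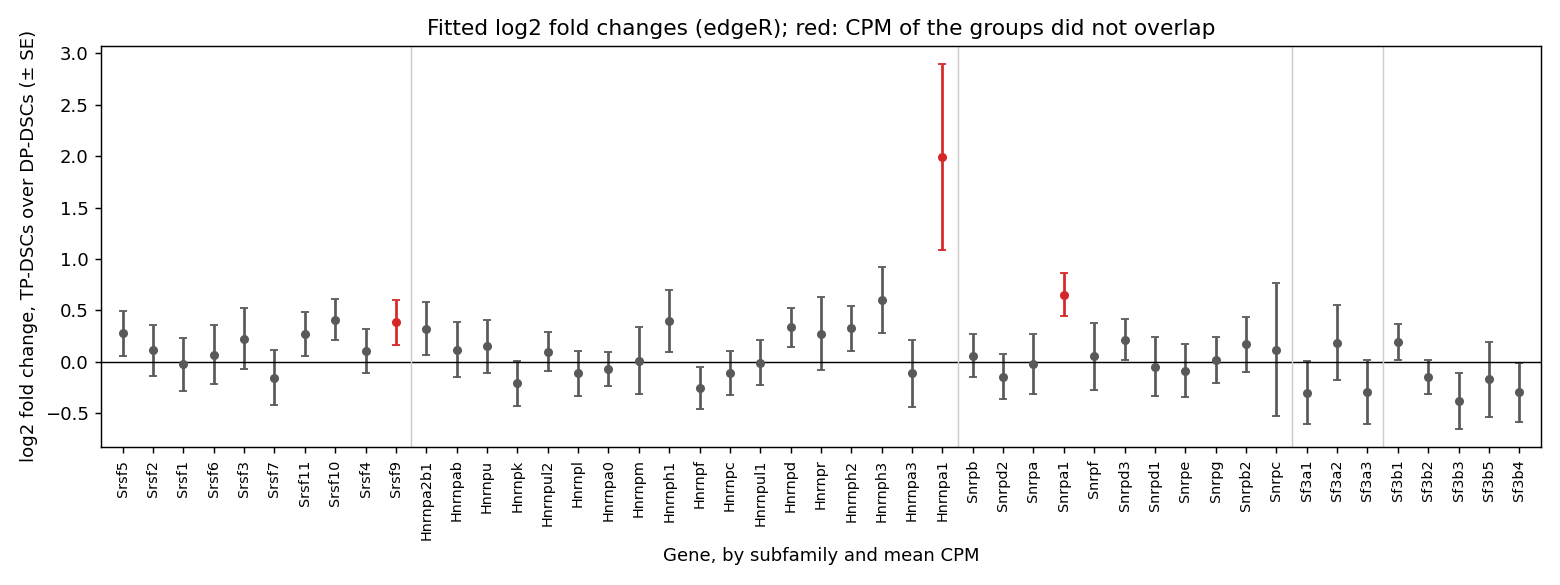
Fitted log2 fold change (TP-DSCs over DP-DSCs, edgeR) of the 47 tested genes with its standard error as bars, grouped by subfamily and ordered by mean CPM. Red marks Srsf9, Hnrnpa1 and Snrpa1, whose CPM did not overlap between the groups; nearly all other points lie within 0.5 of 0.

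The libraries themselves differed more regularly than the groups did. Library names carry 3840 for replicate 1 of each group or 4140 for the other 4, a number that the labels leave unexplained. DP-DSCs replicate 1 had the lowest CPM of its group for 41 of the 47 splicing genes (87.2%, beside 44.5% of all tested genes). TP-DSCs replicate 1 was the lowest of its group for 32 (68.1%, beside 42.1%). Both were lowest at once for 27 genes (57.4%, beside 19.8%), and for 0 genes were both the highest (beside 13.3% of all tested genes). DP-DSCs replicate 2 was the highest of its group for 38 genes (80.9%, beside 46.3%). The median deviation of the 47 genes from their own mean log2 CPM over replicates 1, 2 and 3 was -0.27, 0.16 and 0.00 for DP-DSCs. For TP-DSCs it was -0.11, 0.16 and 0.17. Over all tested genes the same median was 0.13, 0.11 and 0.11 for DP-DSCs and 0.04, -0.04 and -0.05 for TP-DSCs. DP-DSCs replicate 1, the library with the lowest splicing gene values, also had the highest immune marker sum, nearly all of it Cd68, with at most 17 reads of any other immune marker; its part in the result was not tested.

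**Figure D3:**
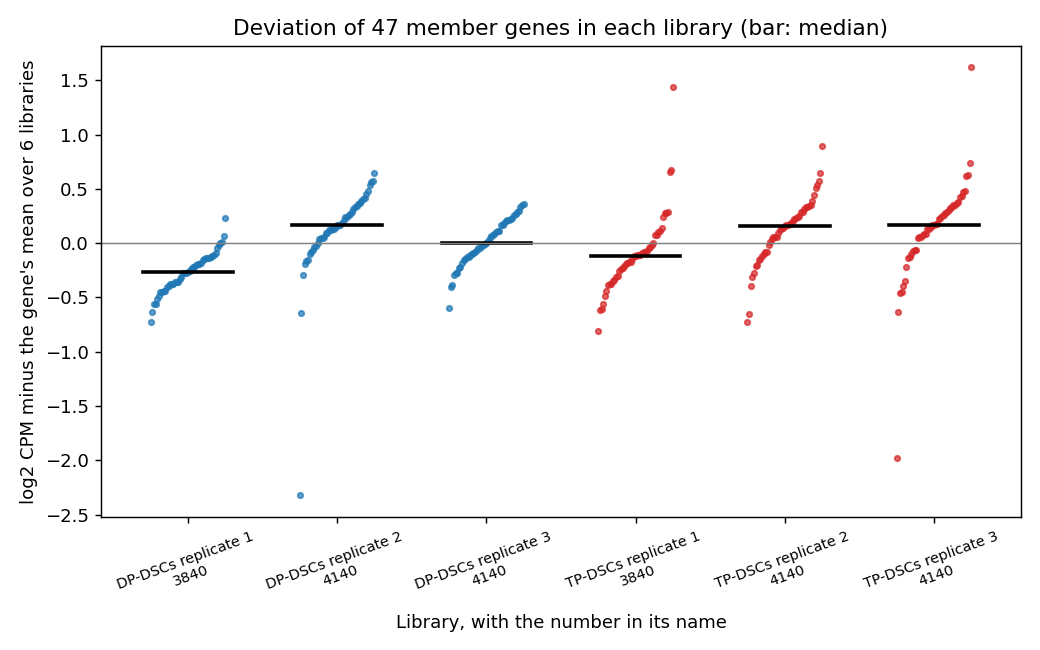
Each point is 1 of the 47 genes in 1 library: its log2 CPM minus its mean over the 6 libraries, with the number in the library's name under each. The black bars (medians) are below 0 in both libraries numbered 3840, at -0.27 and -0.11, and at 0.00 to 0.17 in the 4 libraries numbered 4140. Medians over all tested genes, not drawn, were 0.13 and 0.04 in the libraries numbered 3840 and -0.05 to 0.11 in those numbered 4140.

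Within the number 3840, where each group is 1 library and no error can be given, the median log2 difference of TP-DSCs over DP-DSCs was 0.09 and 34 of the 47 genes were above 0. Within 4140, with 2 libraries per group, the median was 0.00 and 25 genes were above 0. The sign was the same within both numbers for 20 of the 47 genes. Over all 11925 tested genes the medians were -0.06 within 3840 and -0.16 within 4140, with 5427 and 4719 genes above 0. Of all tested genes, 6229 had the same sign within both numbers. The SR genes (medians 0.08 and 0.13) and the hnRNP genes (0.07 and 0.12) had medians above 0 within both numbers. The Snrp genes had a median of 0.24 within 3840 and -0.06 within 4140. The SF3b genes had medians of 0.06 and -0.43, and the SF3a genes of -0.01 and -0.19.

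Few of the splicing genes separated the groups completely. In 3 of the 47 genes every TP-DSCs library lay above every DP-DSCs library (6.38%, beside 3.87% of all tested genes), and in 0 genes did every one lie below (beside 8.56%; 12.4% in either direction). These genes, Snrpa1, Srsf9 and Hnrnpa1, belong to 3 different subfamilies. The shares over all tested genes come from genes of unlike abundance: their mean levels began at 0.223 CPM, those of the 47 splicing genes at 10.1 CPM. In replicates 1, 2 and 3, 14434, 12504 and 13957 genes had reads in DP-DSCs, and 10982, 10571 and 10578 in TP-DSCs. The part of these differences in the shares, or in the share of genes above 0, was not tested.

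**Figure D4:**
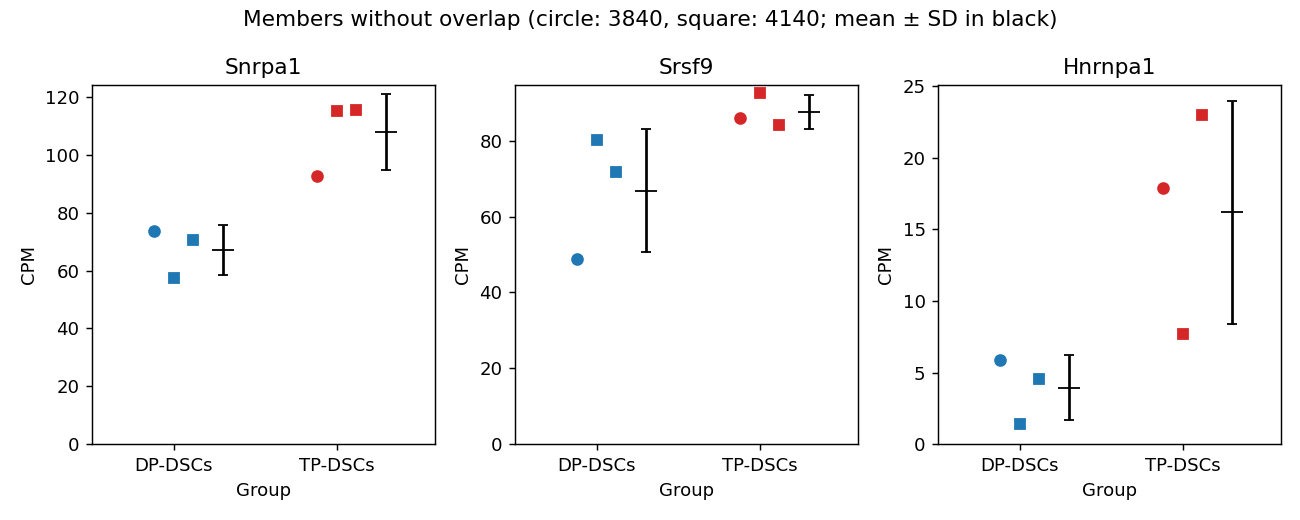
CPM per library of Snrpa1, Srsf9 and Hnrnpa1, with circles for libraries numbered 3840, squares for 4140, and the mean ± SD of each group in black. In each panel the 3 TP-DSCs libraries lie above the 3 DP-DSCs libraries; the gap is narrow for Srsf9 (80.2 against 84.1 CPM) and wider for Snrpa1 (73.7 against 92.7 CPM).

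Among the snRNP proteins, Snrpa1 stood out. It encodes protein A′ of the U2 snRNP and lies at chr7:66059003-66074587 (GRCm38, GENCODE M21), overlapping the gene Gm45213, with which it shares 8.34% of its 50-base words. Over replicates 1, 2 and 3 of DP-DSCs, Snrpa1 was at 73.7, 57.3 and 70.5 CPM. The TP-DSCs libraries had it at 92.7, 115 and 116 CPM. All 3 TP-DSCs libraries were above all 3 DP-DSCs libraries, and the means were 67.2 ± 8.70 and 108 ± 13.1 CPM (SD, n = 3 each). The fitted log2 fold change was 0.65 ± 0.21 (SE), with an unadjusted p of 0.0150 and an adjusted p of 0.378 in edgeR; DESeq2 gave an adjusted p of 0.0800. The log2 difference was 0.36 within 3840 and 0.82 within 4140.

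Its partner in that particle, protein B″, is encoded by Snrpb2. Snrpb2 was at 35.3, 46.6 and 58.8 CPM in DP-DSCs and at 55.4, 47.2 and 56.5 CPM in TP-DSCs, with overlapping groups and a log2 fold change of 0.17 ± 0.27. Snrpa, which encodes the A protein of the U1 snRNP, was at 109, 130 and 115 CPM in DP-DSCs and at 117, 72.1 and 162 CPM in TP-DSCs. Its groups overlapped, with TP-DSCs replicates 2 and 3 at the low and the high end, and the log2 fold change was -0.02 ± 0.29. Snrpc, which encodes the C protein of U1, a zinc finger protein that steadies the pairing of U1 with the 5′ splice site, was at 34.2, 66 and 43.7 CPM in DP-DSCs and at 61.7, 81.7 and 11.1 CPM in TP-DSCs. The single value of 11.1 CPM, in TP-DSCs replicate 3, was the lowest Snrpc level of the 6, and the log2 fold change of 0.12 carried a standard error of 0.65. The Snrpc log2 difference was 0.88 within 3840 and -0.87 within 4140.

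The Sm ring proteins, which sit together around the snRNA in 1 copy each, come from Snrpb, Snrpd1, Snrpd2, Snrpd3, Snrpe, Snrpf and Snrpg. Divided by the length of each gene's principal transcript, their mean levels ran from 25.3 CPM per kilobase for Snrpd3 to 162 for Snrpb, a 6.41-fold span. This span depends on the annotated lengths, 3036 bases for Snrpd3 and 1161 for Snrpb. Before the division Snrpd3 had a mean of 76.8 CPM, beside 77.2 for Snrpf and 75.1 for Snrpd1. Whether these cells use the annotated transcripts was not tested. Snrpb was at 137, 232 and 182 CPM in DP-DSCs and at 159, 191 and 229 CPM in TP-DSCs, with overlapping groups and a log2 fold change of 0.06 ± 0.21. Snrpd2 was at 106, 141 and 160 CPM in DP-DSCs and at 119, 147 and 106 CPM in TP-DSCs, also overlapping, with a log2 fold change of -0.14 ± 0.22. Snrpd3 was at 56.0, 83.5 and 72.8 CPM in DP-DSCs and at 74.2, 87.1 and 87.1 CPM in TP-DSCs. Only DP-DSCs replicate 2 lay inside the TP-DSCs range, and the Snrpd3 log2 fold change was 0.22 ± 0.20. Snrpe had a log2 fold change of -0.08 ± 0.25, Snrpd1 of -0.05 ± 0.29, Snrpf of 0.06 ± 0.33 and Snrpg of 0.02 ± 0.22, each with overlapping groups.

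SF3a binds the U2 snRNP as a complex of 3 proteins, and its genes were measured at close levels per length: 22.3 CPM per kilobase for Sf3a1, 30.3 for Sf3a2 and 32.1 for Sf3a3, a 1.44-fold span. Sf3a1 was at 89.4, 152 and 120 CPM in DP-DSCs and at 55.7, 129 and 114 CPM in TP-DSCs, with a log2 fold change of -0.30 ± 0.31. Sf3a3 was at 39.3, 82.9 and 70.2 CPM in DP-DSCs and at 38.3, 66.1 and 53.7 CPM in TP-DSCs, with a log2 fold change of -0.30 ± 0.31. For both, replicate 1 was the lowest library of its group and replicate 2 the highest, in DP-DSCs and TP-DSCs alike, and the groups overlapped. Sf3a2 was at 46.5, 88.7 and 53.5 CPM in DP-DSCs and at 72.1, 98.7 and 43.0 CPM in TP-DSCs; its log2 fold change was 0.19 ± 0.36, with 0.66 within 3840 and -0.12 within 4140.

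SF3b holds the branch point adenosine against the U2 snRNA. Per length, its genes ran from 20.2 CPM per kilobase for Sf3b5 to 96.0 for Sf3b2, a 4.75-fold span. The annotated transcripts used for this are 3841 bases long for Sf3b5 and 3222 for Sf3b2. In CPM, Sf3b5 had a mean of 77.5, above Sf3b4 at 60.7. Sf3b1, the scaffold subunit that contacts the branch region and is often mutated in cancers, was at 332, 352 and 305 CPM in DP-DSCs and at 309, 448 and 390 CPM in TP-DSCs. Its groups overlapped, the log2 fold change was 0.19 ± 0.18, and it was the 1 SF3b gene with a value above 0. Sf3b2 was at 292, 356 and 325 CPM in DP-DSCs and at 301, 303 and 278 CPM in TP-DSCs, with a log2 fold change of -0.15 ± 0.17. Sf3b3, a large scaffold subunit that holds Sf3b1, was at 139, 317 and 216 CPM in DP-DSCs and at 142, 185 and 191 CPM in TP-DSCs. Its groups overlapped through the low DP-DSCs replicate 1, and its log2 fold change of -0.38 ± 0.27 was the lowest of all 47 genes. Sf3b4, an RNA-binding subunit, was at 50.7, 93.1 and 57.0 CPM in DP-DSCs and at 50.2, 68.6 and 44.8 CPM in TP-DSCs, with a log2 fold change of -0.30 ± 0.29.

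The smallest subunit, Sf3b5, split by library number. It was at 68.5 CPM in DP-DSCs replicate 1 and 110 CPM in TP-DSCs replicate 1, and so higher in TP-DSCs within 3840. Within 4140 it was at 91.5 and 87.9 CPM in DP-DSCs and at 49.5 and 57.4 CPM in TP-DSCs, and so lower in both TP-DSCs libraries. The log2 differences were 0.72 and -0.79, and the fit over all 6 libraries gave -0.17 ± 0.36 with an adjusted p of 0.999 in edgeR. Fitted on the 4 libraries numbered 4140 alone, Sf3b5 had a log2 fold change of -0.81, an unadjusted p of 0.0189 and an adjusted p of 0.216 in edgeR, the 1 gene of the 47 lower in TP-DSCs at an unadjusted p under 0.05 (background 9.89%). In the same fit Snrpa1, Hnrnph3 and Srsf10 were higher (background 2.32%). Whether the fold change of Sf3b5 differs between the library numbers was not tested.

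Reads were found for all 11 SR genes, 10 of them at testable levels. Srsf5, an SR protein linked to proliferating and regenerating cells, was the most abundant per length at 322 CPM per kilobase. Srsf5 was at 537, 419 and 362 CPM in DP-DSCs and at 486, 615 and 527 CPM in TP-DSCs. It broke the usual order of the libraries: DP-DSCs replicate 1 was the highest of its group and lay within the TP-DSCs range. The log2 fold change was 0.28 ± 0.22, with -0.12 within 3840 and 0.51 within 4140.

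Srsf9, a small SR protein close in sequence to Srsf1, lies at chr5:115327177-115333080 (GRCm38, GENCODE M21) and shares 0% of its 50-base words with another gene. Srsf9 was at 48.7, 80.2 and 71.7 CPM in DP-DSCs and at 85.9, 92.5 and 84.1 CPM in TP-DSCs. The groups did not overlap, the TP-DSCs libraries lay close together, and the means were 66.9 ± 16.3 and 87.5 ± 4.44 CPM (SD, n = 3 each). The log2 fold change of Srsf9 was 0.38 ± 0.22, with an adjusted p of 0.999 in edgeR, and it was 0.85 within 3840 and 0.18 within 4140.

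Srsf10, which represses splicing when dephosphorylated in stress and mitosis, was at 101, 119 and 115 CPM in DP-DSCs and at 108, 181 and 164 CPM in TP-DSCs. TP-DSCs replicates 2 and 3 were above all DP-DSCs libraries and replicate 1 was among them. The Srsf10 log2 fold change was 0.41 ± 0.20, with an adjusted p of 0.985 in edgeR. Srsf2, which encodes SC35, the protein used to mark nuclear speckles, was at 255, 446 and 260 CPM in DP-DSCs and at 325, 293 and 422 CPM in TP-DSCs, with overlapping groups and a log2 fold change of 0.11 ± 0.25. Srsf1, among the first SR proteins to be purified, was at 225, 420 and 279 CPM in DP-DSCs and at 212, 352 and 353 CPM in TP-DSCs. Its groups overlapped and the log2 fold change was -0.03 ± 0.26. Srsf7, a zinc-knuckle SR protein that also acts in mRNA export, was at 115, 211 and 183 CPM in DP-DSCs and at 104, 175 and 185 CPM in TP-DSCs, and its log2 fold change of -0.15 ± 0.27 was the lowest among the SR genes. The other tested SR genes, Srsf3, Srsf4, Srsf6 and Srsf11, had overlapping groups, with log2 fold changes of 0.23 ± 0.30, 0.11 ± 0.21, 0.07 ± 0.28 and 0.27 ± 0.21.

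Among the hnRNP genes Hnrnpa1 had the largest fitted difference and the largest error. It encodes hnRNP A1, usually among the most abundant hnRNPs and a repressor of exons, and lies at chr15:103240432-103246692 (GRCm38, GENCODE M21). Hnrnpa1 was at 5.86, 1.44 and 4.55 CPM in DP-DSCs and at 17.9, 7.70 and 23.0 CPM in TP-DSCs. The groups did not overlap, and the means were 3.95 ± 2.27 and 16.2 ± 7.78 CPM (SD, n = 3 each). The log2 fold change was 1.99 ± 0.90, with an unadjusted p of 0.0608 and an adjusted p of 0.894 in edgeR; DESeq2 gave a log2 fold change of 2.02 and an adjusted p of 0.218. The log2 difference was 1.63 within 3840 and 2.30 within 4140.

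The level of Hnrnpa1 is uncertain. At 5.25 CPM per kilobase it was the lowest of the 18 hnRNP genes, 118-fold below Hnrnpa2b1. Of the 50-base words in its principal transcript, 46.4% occur in 19 other annotated genes, 18 of them pseudogenes and the one sharing most being Gm10052. How the authors' counting treated reads that align to several genes is not given in the sources used here, and its part in the level was not tested. Over all 49 genes, 18 share more than 20% of their 50-base words with another gene and 7 share 0%. The highest shares were in Hnrnpa3, with 97.7% (41 of the 43 genes that share words with it are pseudogenes), and in Snrpf, with 89.5%, where the gene sharing most is the overlapping Ccdc38.

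**Figure D5:**
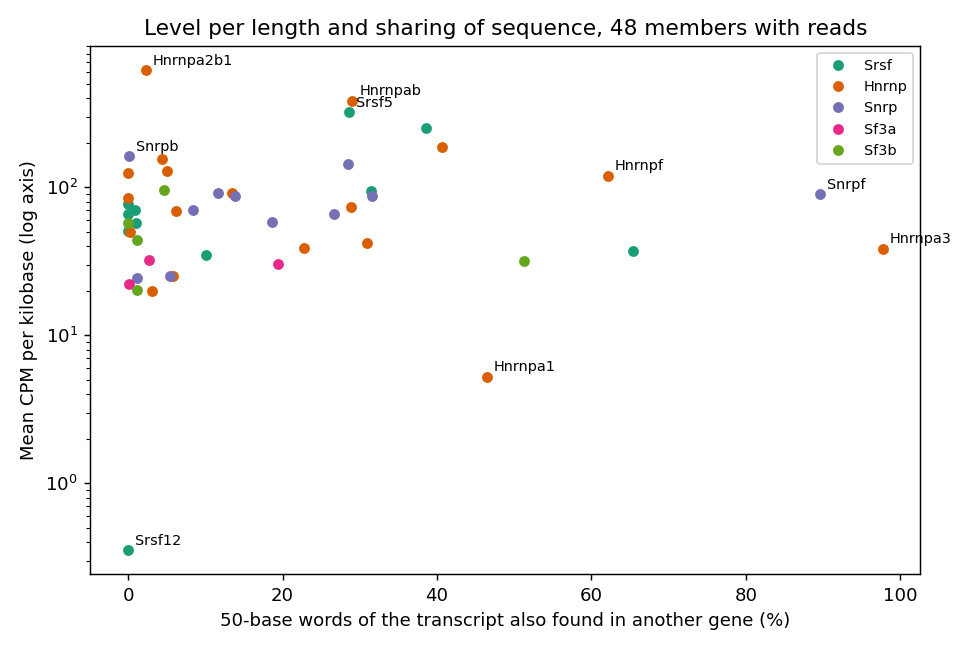
Mean CPM per kilobase of the principal transcript (log axis) against the percentage of a gene's 50-base words also found in another gene, for the 48 genes with reads, coloured by subfamily. Hnrnpa1 lies at 46.4% and 5.25 CPM per kilobase, below every gene but Srsf12 at 0.353; Hnrnpa3 lies farthest right, at 97.7% and 38.4 CPM per kilobase.

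Hnrnpa2b1, which binds UAG-containing RNA and takes part in RNA transport, was the most abundant of the 49 genes per length at 621 CPM per kilobase. It was at 667, 1118 and 910 CPM in DP-DSCs and at 776, 1301 and 1336 CPM in TP-DSCs. TP-DSCs replicates 2 and 3 were above all DP-DSCs libraries, TP-DSCs replicate 1 was among them, and the log2 fold change was 0.32 ± 0.26. Hnrnpab, an A/B-type hnRNP, was at 569, 1168 and 882 CPM in DP-DSCs and at 766, 960 and 1132 CPM in TP-DSCs, with overlapping groups and a log2 fold change of 0.12 ± 0.27. Hnrnpu, a nuclear scaffold protein that binds chromatin and RNA, was at 454, 797 and 574 CPM in DP-DSCs and at 473, 736 and 841 CPM in TP-DSCs. Its groups overlapped too, with replicate 1 lowest in each, and the log2 fold change was 0.15 ± 0.26.

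The H and F proteins bind runs of guanines, and their genes did not share a direction. Hnrnph3 was at 31.8, 41 and 30.6 CPM in DP-DSCs and at 30.3, 62.7 and 67.0 CPM in TP-DSCs. TP-DSCs replicate 1 was the lowest of all 6 libraries and replicates 2 and 3 the highest; the log2 fold change of Hnrnph3 was 0.60 ± 0.32, with an adjusted p of 0.999 in edgeR, -0.04 within 3840 and 0.83 within 4140. Hnrnph1 had a log2 fold change of 0.40 ± 0.30 and Hnrnph2 of 0.32 ± 0.22. Hnrnpf was at 228, 363 and 292 CPM in DP-DSCs and at 195, 286 and 267 CPM in TP-DSCs, with overlapping groups and a log2 fold change of -0.26 ± 0.20, the lowest among the hnRNP genes. Whether Hnrnpf differs from the H genes in its fold change was not tested, and 62.1% of its 50-base words occur in other genes.

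Hnrnpd, which encodes AUF1, a protein that binds AU-rich elements and governs mRNA decay, was at 141, 176 and 136 CPM in DP-DSCs and at 145, 224 and 211 CPM in TP-DSCs. DP-DSCs replicate 2 and TP-DSCs replicate 1 crossed over, and the log2 fold change was 0.33 ± 0.19. Hnrnpk, a poly-C binding protein, was at 428, 635 and 552 CPM in DP-DSCs and at 426, 394 and 589 CPM in TP-DSCs. Its groups overlapped and its log2 fold change was -0.21 ± 0.22. The remaining hnRNP genes, Hnrnpa0, Hnrnpa3, Hnrnpc, Hnrnpl, Hnrnpm, Hnrnpr, Hnrnpul1 and Hnrnpul2, had overlapping groups and log2 fold changes from -0.11 for Hnrnpl, Hnrnpc and Hnrnpa3 to 0.27 for Hnrnpr. Hnrpdl and Hnrpll, listed under older symbols that the choice by symbol misses and added after their values were seen, had means of 168 and 92.9 CPM and log2 fold changes of -0.09 and 0.07.

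Splicing factors outside these families gave a similar picture: in 8 lists of them, 0 genes passed an adjusted p under 0.05 in edgeR in either direction. Of 20 other proteins of the spliceosomal snRNPs, 10 had a log2 fold change above 0 and 10 below, with a median of 0.01. Of these, Rnpc3, a protein of the minor spliceosome, had 0.95 ± 0.54 and Zmat5 -0.68 ± 0.64. Of 11 genes of the U2 auxiliary factor and the branch site, 5 were above 0 and 6 below (median -0.01). Among them Puf60, a U2AF-related factor for weak 3′ splice sites, was at 99.9, 133 and 142 CPM in DP-DSCs and at 90.6, 71.4 and 61.6 CPM in TP-DSCs. All 3 TP-DSCs libraries of Puf60 were below all 3 of DP-DSCs, which held for 1 of the 11 genes (beside 8.56% of all tested genes). The Puf60 log2 fold change was -0.74 ± 0.25, with an adjusted p of 0.466 in edgeR. Ddx46, a helicase of the same step, had 0.25 ± 0.25.

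Of 28 genes of the Prp19 complex and the catalytic steps, 11 were above 0 and 17 below, with a median log2 fold change of -0.05. Prpf38b had 0.68 ± 0.24 (adjusted p 0.554 in edgeR), and Rbm22, which contacts the catalytic RNA core, -0.54 ± 0.24 (adjusted p 0.899 in edgeR). Without overlap of the groups, 2 of the 28 were higher in TP-DSCs, Prpf38b and Crnkl1 (beside 3.87% of all tested genes). In the other direction, 2 were lower without overlap, Rbm22 and Snw1 (beside 8.56%). Of 9 LSm genes tested, 7 encode proteins of the rings that bind the U6 snRNA or decaying mRNA, and Lsm10 and Lsm11 belong to the U7 snRNP of histone mRNA processing. In this list 6 were above 0 and 3 below (median 0.31), with 0.42 ± 0.45 for Lsm2 and -0.39 ± 0.20 for Lsm4. Lsm4 alone of these did not overlap between the groups, with TP-DSCs lower (1 of 9, beside 8.56% of all tested genes). Of 16 snRNP assembly genes, 7 were above 0 and 9 below (median -0.17). Among these, Sart3, which helps U4 and U6 snRNPs re-form after each round of splicing, was at 61.3, 87.5 and 65.0 CPM in DP-DSCs and at 109, 111 and 119 CPM in TP-DSCs. The Sart3 groups did not overlap; its log2 fold change was 0.66 ± 0.19, with an adjusted p of 0.243 in edgeR and 0.0242 in DESeq2, so the call depended on the tool. Prmt5, which methylates Sm proteins before assembly, had -0.36 ± 0.34. Tgs1, also of the assembly genes, was higher in TP-DSCs without overlap, which with Sart3 makes 2 of 16 (beside 3.87% of all tested genes).

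The SR protein kinases and their importer gave 6 of 9 tested genes above 0 (median log2 fold change 0.18). Of these, Dyrk1a was at 56.6, 59.5 and 52.8 CPM in DP-DSCs and at 79.1, 73.8 and 89.5 CPM in TP-DSCs. Dyrk1a did not overlap between the groups, the 1 such gene of the 9 (beside 3.87% of all tested genes higher in TP-DSCs). Its log2 fold change was 0.51 ± 0.19, with an adjusted p of 0.671 in edgeR. Clk2, another kinase of SR proteins, had -0.33 ± 0.24. Of 19 SR-related genes tested, 13 were above 0 and 6 below (median 0.09), with 0.56 ± 0.24 for Luc7l3, a U1-associated protein, and -0.40 ± 0.19 for Rnps1, which associates with the exon junction complex. Scaf11 alone of the SR-related genes tested did not overlap between the groups, with TP-DSCs higher (1 of 19, beside 3.87% of all tested genes). Of 24 relatives of the hnRNPs, 11 were above 0 and 13 below (median -0.03), with 0.44 ± 0.28 for Tial1 and -0.42 ± 0.22 for Nono, a paraspeckle protein.

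The log2 differences of these list genes within 3840 and within 4140 were often unequal. They were -0.11 and -1.09 for Puf60, 0.13 and 0.90 for Prpf38b, and 0.09 and 0.66 for Tial1. For Rnpc3 (-0.06 and 1.11), Luc7l3 (-0.06 and 0.81), Ddx46 (-0.31 and 0.46) and Nono (0.05 and -0.64) they lay on opposite sides of 0. They were closer for Dyrk1a (0.51 and 0.50), Rnps1 (-0.37 and -0.41), Clk2 (-0.30 and -0.34), Prmt5 (-0.30 and -0.41), Rbm22 (-0.43 and -0.60) and Sart3 (0.86 and 0.57). The remaining values were -0.50 and -0.998 for Zmat5, 0.05 and 0.51 for Lsm2, and -0.11 and -0.55 for Lsm4. Whether they differ between the library numbers was not tested.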

How the data were processed

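RNA of 3 DP-DSCs and 3 TP-DSCs samples was made into stranded, polyA-selected libraries and sequenced, per the labels' protocols. The authors deposited raw counts of reads per gene symbol. The submitters' processing notes name STAR 2.7.3a, Partek, DESeq2 3.5 and build mm10. Neither their roles nor the strand setting of the counting is given in the sources used here, so overlapping and near-identical genes may have gained or lost reads. Rows for reads in no gene (14.1 to 20.3% of reads) and ambiguous reads (1.09 to 1.86%) were left out. Replicate numbers follow deposit order and pair no samples.

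The whole table was fitted in R 4.3.3 with edgeR 4.0.16, by the quasi-likelihood F test on group alone. The fit used filterByExpr (minimum count 10 and total 15), TMM scaling and Benjamini-Hochberg adjustment over all tested genes at 0.05. Its code was checked on simulated counts with known changes, which had to be recovered at a dispersion lower than in these data. That check does not measure the power to find changes here. The standard error is the log2 fold change over the square root of F. Differences within a library number use TMM-scaled log2 CPM averaged per group (prior count 2). Deviations of a gene from its mean use the same scaled values. CPM given per library, and the order of the libraries, are over gene reads without this scaling. DESeq2 1.42.0 (on all genes, with its own filtering), limma-voom (limma 3.58.1), other scalings and filters, the library number as a block, 4140 alone and leaving out each library were the alternatives. Lengths, 50-base words and gene coordinates came from GENCODE M21 (GRCm38) and start regions from RefSeq. The principal transcript was the protein-coding one with the best APPRIS tag, and of several such, the one of lower median length. Levels per length depend on this annotated length.

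Genes named within a subfamily were the 3 with the highest mean CPM and the 2 with the smallest p in each direction, and within a list the 1 with the smallest p in each direction. Other genes with values were added after these were seen. The members and lists were chosen with earlier results of these data known.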

Additional observations from a re-analysis of the deposited data

How the results depend on the processing

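With each of the 15 alternatives, 0 splicing genes passed the adjusted threshold. No paired analysis was possible because the labels carry no replicate numbers that pair single samples across the groups; the number in the library names was fitted as a block instead, also with 0 calls. Without DP-DSCs replicate 1, 16 of 47 fold changes were above 0 instead of 28, and leaving out each library in turn gave 16 to 32. Under the same omissions the median log2 fold change ran from -0.081 to 0.20 for all members, from -0.025 to 0.31 for Srsf, from -0.054 to 0.33 for Hnrnp (main value 0.11; 0.33 without DP-DSCs replicate 2), from -0.081 to 0.12 for Snrp, from -0.47 to -0.064 for Sf3a and from -0.31 to -0.079 for Sf3b (main value -0.17; -0.29 without DP-DSCs replicate 1, -0.31 without TP-DSCs replicate 1). On 4140 alone the Snrp median was -0.090 and the Sf3b median -0.45, and the latter was -0.28 with limma-voom and -0.28 with the library number as a block.

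Of 630 values for 42 named genes, 611 kept their direction and side of the threshold, 18 in 10 genes reversed, and 1, Sart3 under DESeq2, passed the threshold. On 4140 alone the log2 fold change was -0.030 for Srsf2, -0.025 for Hnrnpab, -0.034 for Snrpb and -0.055 for Sf3a2. Leaving out each library gave -0.027 to 0.36 for Srsf2, -0.21 to 0.20 for Srsf1, -0.37 to 0.0072 for Srsf7, -0.12 to 0.32 for Hnrnpab, -0.022 to 0.33 for Hnrnpu, -0.11 to 0.20 for Snrpb, -0.28 to 0.24 for Snrpa, -0.29 to 0.073 for Snrpe, -0.073 to 0.47 for Sf3a2 and -0.012 to 0.73 for Lsm2. The cause was not tested. With 3 libraries per group the median standard error was 0.26 (log2). Fitted differences well above this median did not pass the adjusted threshold. Examples with their own standard errors were 0.65 ± 0.21 for Snrpa1 and 1.99 ± 0.90 for Hnrnpa1, whose error was the largest. A missed threshold therefore does not show equal levels.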
